A study of Mus musculus with 8 samples.

Results

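Epcam, matriptase (St14), the related membrane proteases Prss8, Tmprss2, Tmprss4 and Hpn, and the inhibitors Spint1 and Spint2 were followed in mouse dorsal pancreatic epithelium at e12.5. They were taken by gene name from the array's non-control probes, with Tacstd1 read as the older name of Epcam, which gave 12 probes for 8 genes out of 41174 probes and 27828 gene names. The mutant samples came from embryos homozygous for a floxed Sox9 allele that also carried the Pdx1-Cre transgene, in which the Pdx1 promoter drives Cre in the pancreatic primordium. The wild-type samples came from littermates that were floxed at Sox9 likewise but lacked Cre, and effects of losing Sox9 and of carrying Cre cannot be told apart. The floxed line is on a mixed FVB/N and C57Bl/6J background and the Cre line on C57Bl/6J. Each of the 4 mutant and 4 wild-type samples was RNA of 3 pooled embryos on 1 single-colour array, while the series text speaks of fewer biological replicates, so that n = 4 rests on the sample labels.

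Epcam is a cell adhesion protein of epithelia that binds and stabilises claudins at the lateral membrane. Matriptase, the product of St14, is a transmembrane serine protease that can cleave Epcam and that activates other proteases, among them prostasin, the product of Prss8. The Kunitz-type inhibitors HAI-1 and HAI-2, encoded by Spint1 and Spint2, restrain matriptase and prostasin at the surface of epithelial cells.

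Of the 8 members, 5 have a probe that crosses an intron, and 3 of these probes are shown because they match spliced Epcam, St14 and Spint1 RNA. The Epcam probe gave the values below, whereas those of St14 and Spint1 come from a brighter probe that crosses no intron, and the probes shown are given there as the second probes. On mm8 the Epcam probe spans chr17:87557958-87558786 on the plus strand, the St14 probe chr9:30850003-30852442 on the minus strand and the Spint1 probe chr2:118939842-118940254 on the plus strand. Each has at least 1 reading frame free of stop codons.
Epcam: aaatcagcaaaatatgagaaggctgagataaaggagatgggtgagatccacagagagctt
St14: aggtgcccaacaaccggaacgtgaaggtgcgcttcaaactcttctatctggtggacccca
Spint1: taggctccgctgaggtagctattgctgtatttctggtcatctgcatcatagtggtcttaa

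Values below are log2 processed signals minus the 75th percentile of the same array, so that 0 is that percentile. Lists of 4 values run from replicate 1 to 4. Values compare arrays for 1 probe and not the levels of different genes. Between 59.4% and 77.7% of spots were well above background on each array. The arrays lay on 3 slides, each with both genotypes. Slide 1 carried 1 array of each genotype (wild-type 2, mutant 3), slide 2 carried wild-type 3 with mutant 1 and mutant 4, and slide 3 carried wild-type 1, wild-type 4 and mutant 2. Sox9 was 6.49-fold lower in the mutant samples (log2 difference -2.70, adjusted p = 0.0253 in limma). The mean level of 4 Y-linked genes was between -6.79 and -5.74 in 3 wild-type pools and between -3.29 and -1.07 in the other 5 pools, and was thus partly split by genotype.

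Of the 8 members, 6 fell in the mutant samples (Epcam, St14, Spint1, Prss8, Tmprss2 and Hpn), none rose, and Spint2 and Tmprss4 did not pass the threshold (adjusted p under 0.05 in limma, adjusted over 18506 genes). Of all genes tested, 3.81% were called lower and 1.56% higher, 5.37% in either direction. The median log2 difference was -1.96 over the 8 members and 0.016 over all genes. In bulk tissue, fewer epithelial cells and less RNA per cell cannot be told apart, and the genes of an epithelial list fell in the same samples, 22 of 27 with a median of -1.99. With the Y-linked level as a covariate none of the members passed, with adjusted p between 0.0656 and 0.474, and 29 genes passed in all.

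**Figure D1:**
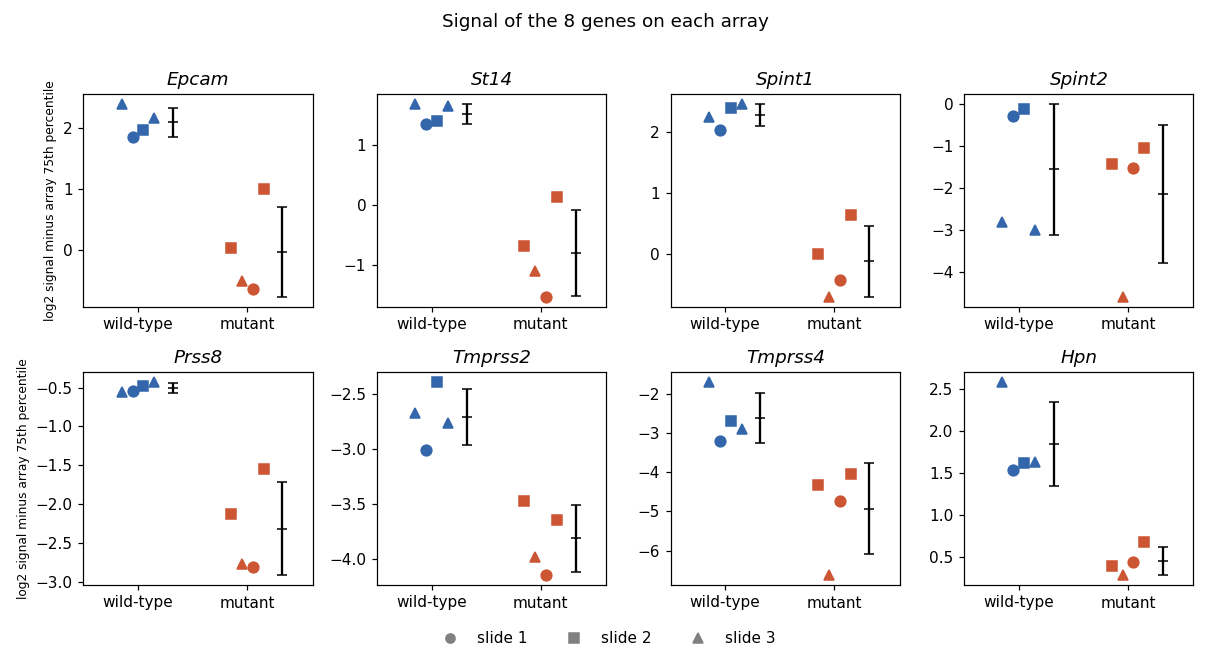
Log2 signal minus the array's 75th percentile for the highest-signal probe of each gene, by genotype. Points are arrays with the slide as the marker shape, and bars are the mean and SD of 4 arrays. The genotypes do not overlap for 7 genes, each lower in the mutant, where 7.98% of all genes were lower without overlap, and the 3 arrays of slide 3 lie lowest for Spint2, from -4.59 to -2.81.

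Epcam read 2.40, 1.86, 1.97 and 2.16 on the wild-type arrays and 0.033, -0.50, -0.62 and 1.004 on the mutant arrays. Every wild-type array was above every mutant array, and mutant replicate 4 was the nearest to the wild-type samples. Wild-type arrays averaged 2.10 ± 0.24 and mutant arrays -0.022 ± 0.74 (SD, n = 4 each). Epcam was thus 4.35-fold lower, a log2 difference of -2.12 (SE 0.343, 95% interval -2.91 to -1.33, adjusted p = 0.0137 in limma). Over the array assignments, a two-sided exact permutation test gave p = 0.0286, the smallest that 4 against 4 arrays can give. Within slides 1, 2 and 3 the difference was -2.48, -1.45 and -2.78. The spread between mutant arrays was larger than between wild-type arrays, as it was for St14, Spint1 and Prss8.

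St14 and Prss8, the matriptase and prostasin genes, fell as well. St14 read 1.67, 1.34, 1.39 and 1.65 on the wild-type arrays and -0.69, -1.11, -1.54 and 0.13 on the mutant arrays. The groups did not overlap, and the order of the mutant arrays was that seen for Epcam. The log2 difference of -2.31 had an SE of 0.323 and a limma adjusted p of 0.00958 and corresponds to a 4.97-fold lower signal. The second St14 probe, shown above, was dimmer, was above background on 2 of 4 mutant arrays and gave -2.62 (adjusted p = 0.0149 in limma over all probes), and -0.74 in the authors' value table. Prss8, which encodes a protease held to the membrane by a lipid anchor, read -0.56, -0.55, -0.49 and -0.43 on the wild-type arrays and -2.13, -2.76, -2.81 and -1.55 on the mutant arrays. Its 4 wild-type values were close together, with an SD of 0.062 against 0.60 in the mutant samples. The log2 difference of -1.81 had an SE of 0.270 and a limma adjusted p of 0.0112 and corresponds to a 3.50-fold lower signal. Within slides 1, 2 and 3 it was -2.26, -1.35 and -2.27.

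Spint1, the inhibitor that binds matriptase at the cell surface, had the largest difference of the members that passed. Its log2 signals were 2.24, 2.03, 2.38 and 2.45 on the wild-type arrays and -0.00012, -0.70, -0.44 and 0.63 on the mutant arrays. The groups did not overlap. The log2 difference of -2.40 had an SE of 0.275 and a limma adjusted p of 0.00813 and corresponds to a 5.29-fold lower signal, and the second probe gave -2.54 (adjusted p = 0.0102 in limma over all probes). Both probes were above background on all 8 arrays. Within slides 1, 2 and 3 the difference of the first was -2.47, -2.07 and -3.05.

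Spint2, the second Kunitz-type inhibitor, did not pass, and its level differed between slides. Its log2 signals were -2.81, -0.28, -0.11 and -2.99 on the wild-type arrays and -1.43, -4.59, -1.51 and -1.03 on the mutant arrays. The 3 low arrays, wild-type replicates 1 and 4 and mutant replicate 2, are those of slide 3, and the genotypes overlapped. The log2 difference of -0.59 had an SE of 0.974, a limma adjusted p of 0.860 and a 95% interval from -2.83 to 1.64. Within slides 1, 2 and 3 the mutant was lower by a log2 difference of -1.23, -1.12 and -1.69. With slide as a block the difference was -1.36 (SE 0.163, adjusted p = 0.0145 in limma), where 6.98% of genes were called, 4.65% lower and 2.33% higher. With slide as a random block it was -0.90 and did not pass (adjusted p = 0.617 in limma). Without slide in the model and without mutant replicate 2 it was 0.23 and had the opposite sign. With genotype in the model, slide 3 differed from the other slides by a log2 value of -2.95 (SE 0.177, limma adjusted p = 0.000544), the value ranked 19 from the lowest among 18506 genes. This slide difference was called for 1.79% of genes and for none of the other 7 members, whose lowest adjusted p was 0.735. The contrast was not planned and follows the 3 low arrays named above, so its p and rank are not separate support. A test over all 3 slides, with none singled out, gave a limma adjusted p of 0.00457 for Spint2 and called 480 of 18506 genes. Spint2 has a single probe on the array, and its 60 bases hold the letters AATAAA, as do those of the brighter Hpn probe.

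**Figure D2:**
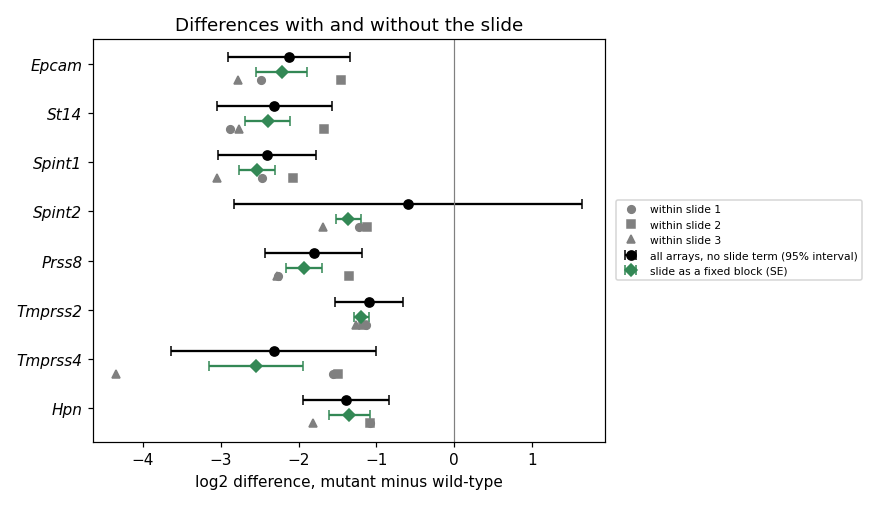
Log2 difference, mutant minus wild-type, for each gene. Circles with 95% intervals are the fit without slide, diamonds with SE the fit with slide as a block, and grey markers the difference within each slide; for Spint2 the 3 within-slide values lie between -1.69 and -1.12 while the interval without slide runs from -2.83 to 1.64.

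Hpn, which encodes hepsin, a transmembrane protease abundant in liver, fell too. Its log2 signals were 2.58, 1.53, 1.62 and 1.63 on the wild-type arrays and 0.39, 0.29, 0.45 and 0.69 on the mutant arrays. Wild-type replicate 1 stood above the other wild-type arrays, and the groups did not overlap. The log2 difference of -1.39 had an SE of 0.239 and a limma adjusted p of 0.0175 and corresponds to a 2.61-fold lower signal. Without wild-type replicate 1 it was -1.14 (limma adjusted p = 0.0220). The call was lost without mutant replicate 1 (adjusted p = 0.0581) or mutant replicate 2 (0.0585). The second Hpn probe was dimmer, was above background on 3 of 4 mutant arrays and gave -1.54 (adjusted p = 0.0241 in limma over all probes). With normexp and in the authors' value table that probe gave -0.72 each. Of 12 measured liver genes, 3 rose and 2 fell, and they are named here after their values were seen. The plasma protein genes Alb (3.48, adjusted p = 0.0233), Afp (2.23, 0.00813) and Itih2 (2.60, 0.00412) rose, and Ambp (-1.59, 0.00889) and Hnf4a, a transcription factor of liver and gut (-1.50, 0.0103), fell. Leaving out single arrays, Alb passed in 4 of 8 fits and each of the others in 8 of 8. Hnf4a was at -0.75 with normexp and -0.79 in the authors' table.

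Tmprss2 and Tmprss4, transmembrane proteases of many epithelia, were dim. Tmprss2 read -2.68, -3.01, -2.39 and -2.77 on the wild-type arrays and -3.47, -3.98, -4.15 and -3.65 on the mutant arrays, and was above background on 3 of 4 mutant arrays. The groups did not overlap, and the log2 difference of -1.10 had an SE of 0.190 and a limma adjusted p of 0.0176. Its other probe, whose groups overlapped, gave -0.55 (adjusted p = 0.451 in limma over all probes). Under normexp background correction, and likewise in the table deposited by the authors, that other probe had the higher signal and gave -0.19 and -0.12, and the call was lost, while the first probe gave -0.43 and -0.44. Leaving out wild-type array 1, wild-type array 4 or mutant array 2 also ended it, at a limma adjusted p of 0.0510, 0.0553 and 0.0585. Tmprss4 read -1.69, -3.19, -2.69 and -2.88 on the wild-type arrays and -4.32, -6.63, -4.74 and -4.04 on the mutant arrays. The groups did not overlap, but the log2 difference of -2.32 did not pass (SE 0.576, adjusted p = 0.0583 in limma). It was above background on 2 of 4 mutant arrays and gave -0.79 in the authors' table. Over all genes, 7.98% had groups that did not overlap with the mutant lower.

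Each array was then centred on the median of 27 epithelial genes that are not members, which gives the difference relative to other epithelial genes of the same sample. On this scale the log2 difference was -0.37 for Epcam, -0.56 for St14, -0.65 for Spint1, -0.057 for Prss8 and -0.57 for Tmprss4, and 0.65 for Tmprss2, 0.36 for Hpn and 1.16 for Spint2. The genotypes overlapped for all 8 members. The exact permutation p, two-sided, was 0.0571 for Epcam and Spint1, 0.0857 for St14 and Tmprss2, and between 0.143 and 0.743 for the others. In limma 1 of the 8 passed, Spint2 (adjusted p = 0.0105), against 95.3% of all genes, 95% of all genes being higher and 0.324% lower, since the scale follows genes that fell. That fit gave nearly all genes 1 common standard error of 0.447, whatever a gene's own spread, which was an SD of 0.18 in wild-type and 0.32 in mutant samples for Epcam and of 1.85 and 1.29 for Spint2. With slide as a block Spint2 gave 0.44 and did not pass (adjusted p = 0.364 in limma), where 94.2% of all genes passed. Centred on Cdh1 alone, the values of Epcam, St14, Spint1, Prss8 and Tmprss4 were above 0, between 0.11 and 0.70.

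**Figure D3:**
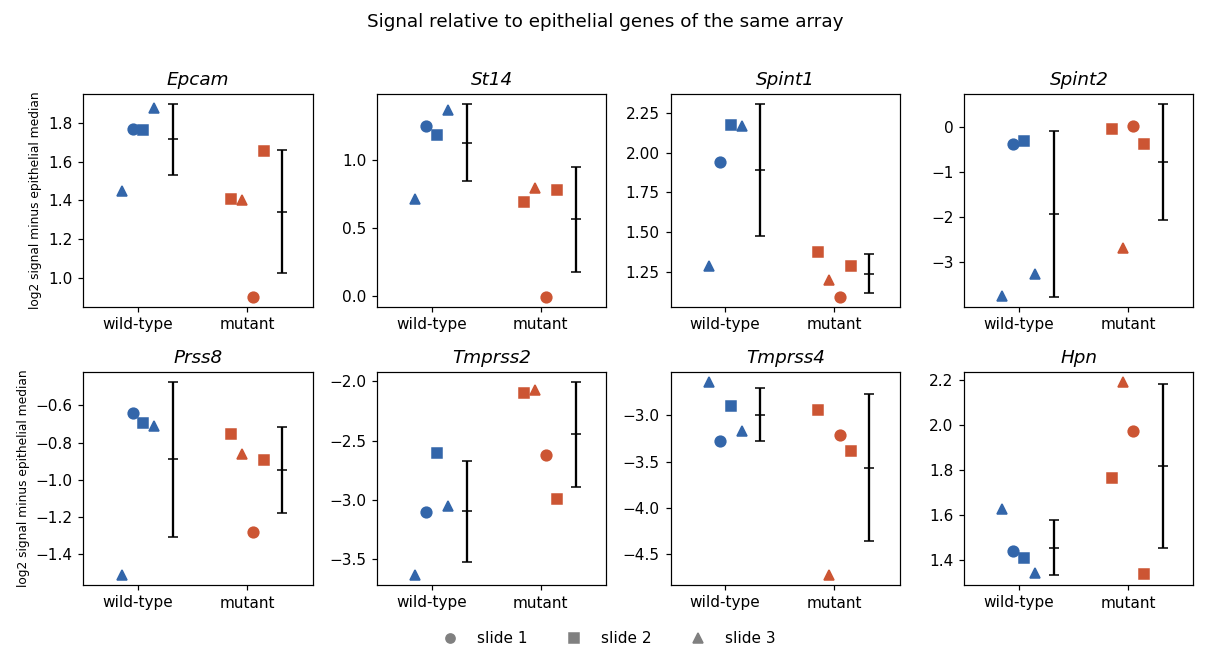
Log2 signal minus the median of the epithelial genes on the same array, with axes, markers and bars as in the plot of signals by genotype. The genotypes overlap for each of the 8 genes.

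The balance of proteases and inhibitors was read as the log2 signal of a protease minus that of an inhibitor on the same array, which shows unequal change and not relative levels. For St14 and Spint1 it averaged -0.77 ± 0.18 on wild-type and -0.68 ± 0.31 on mutant arrays (SD, n = 4 each), a difference of 0.091 (exact permutation p = 0.600). For Prss8 and Spint1 it was -2.80, -2.58, -2.87 and -2.88 on the wild-type arrays and -2.13, -2.06, -2.37 and -2.18 on the mutant arrays. The groups did not overlap, with a difference of 0.60 (exact permutation p = 0.0286, and 0.114 after Benjamini-Hochberg adjustment over 4 comparisons). It did not pass, but with these group sizes no unadjusted p could fall below 0.0286. A lone balance with fully separated groups could therefore not pass after adjustment, and the failure does not speak against a change. The difference was 0.91 with normexp background correction and 0.86 in the authors' table, so its size depended on the background treatment. Prss8 itself was at -1.34 and -1.41 there, and Spint1 at -2.25 and -2.27. Against Spint2 the difference was -1.72 for St14 and -1.21 for Prss8, and neither passed (adjusted exact permutation p = 0.229 each). That test leaves out slide, on which Spint2 differed. Within slides 1, 2 and 3 the values were smaller, at -1.65, -0.55 and -1.08 for St14 and -1.03, -0.23 and -0.58 for Prss8.

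Profiles over the 8 arrays were compared by the root mean square difference of log2 signals, each gene centred on its own mean. The 5 genes nearest to Epcam among 18496 were Ap1m2, a subunit of an epithelial sorting adaptor (0.101), Ell3 (0.113), Gulo (0.118), Tmem184a (0.129) and Bhlha15, a transcription factor of acinar cells (0.133). St14 followed at rank 6 (0.144), with Prss8 at rank 39 and Spint1 at rank 46. Hpn, Tmprss4, Tmprss2 and Spint2 were at ranks 295, 403, 433 and 17729. The median gene was at 1.21. Ap1m2 is also on the epithelial list used for centring. The measure includes the difference between genotypes, which for the 5 nearest genes lay between -2.28 and -1.97. Genes with a fall near that of Epcam are thus near it by construction, and the ranks are not separate support.

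Other genes of the pathway mostly did not pass. Of 7 measured membrane serine proteases, 2 fell, none rose and 5 did not pass, with a median of -0.057. Tmprss5 gave -1.19 (adjusted p = 0.0309 in limma) and Tmprss6, the hepatic regulator of hepcidin, -0.96 (adjusted p = 0.0402), and Corin, which processes natriuretic peptides, was at 0.64 (adjusted p = 0.576). Leaving out single arrays, Tmprss5 passed in 2 of 8 fits and Tmprss6 in 0. Tmprss5 was at -0.43 with normexp and -0.39 in the authors' table, and Tmprss6 at -0.46 and -0.53. Of 8 measured inhibitors, 1 fell and none rose, with a median of -0.045. Ambp, which encodes the Kunitz inhibitor bikunin and is on the liver list too, gave -1.59 (adjusted p = 0.00889), whereas Tfpi (0.19), App (0.13) and the serpin Serpine2 (0.74, adjusted p = 0.120) did not pass.

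Among substrates and effectors of these proteases no gene passed as lower. Of 18 measured, 2 rose and none fell, with a median of 0.045. Plau, the urokinase gene, rose by 0.72 (adjusted p = 0.0394 in limma) and Pdgfc, a growth factor, rose by 0.62 (adjusted p = 0.0233), and they passed in 1 and 3 of the 8 fits that left out an array. Plau was dim and was at 0.28 with normexp and 0.42 in the authors' table, and Pdgfc was at 0.59 and 0.57. Hgf, the growth factor whose precursor hepsin and matriptase can activate, was at -0.10, its receptor Met at 0.25, the activator Hgfac at -0.50, the receptor Mst1r at 0.48 and the sodium channel subunit Scnn1a at -0.18, none past the threshold. F2rl1, the protease-activated receptor gene, was on the array and was not tested, as too few arrays were above background. Of 13 measured Epcam partners, 1 fell and none rose, with a median of 0.093. This was Cldn7, a claudin that Epcam binds, which the epithelial list holds too, at -1.81 (adjusted p = 0.0102 in limma), while the tetraspanin gene Cd9 was at 0.21. Cdh1 and Cldn3 of the epithelial list gave -2.51 (adjusted p = 0.0140) and -2.75 (adjusted p = 0.00880). In the same samples 15 of 16 mesenchyme, 10 of 10 endothelium and 10 of 10 macrophage genes were above 0, with medians of 0.59, 0.47 and 0.64, and 4, 2 and 5 of them rose. Of 8 pancreas genes 7 fell, with a median of -2.84, and of 8 mesothelium genes 2 rose, with a median of 0.83. Of 5 measured neural crest genes 0 were above 0 and 1 fell, with a median of -0.71. Of 8 erythroid genes 7 were above 0 and none passed, with a median of 0.47. Of 4 measured stomach and intestine genes 3 were above 0 and 1 fell, with a median of 0.15. Of all 18506 genes tested, 9779 were above 0. The mean level of the epithelial list ran from 0.52 to 1.07 in wild-type and from -1.34 to -0.38 in mutant samples, and its part in the members' differences was not tested.

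**Figure D4:**
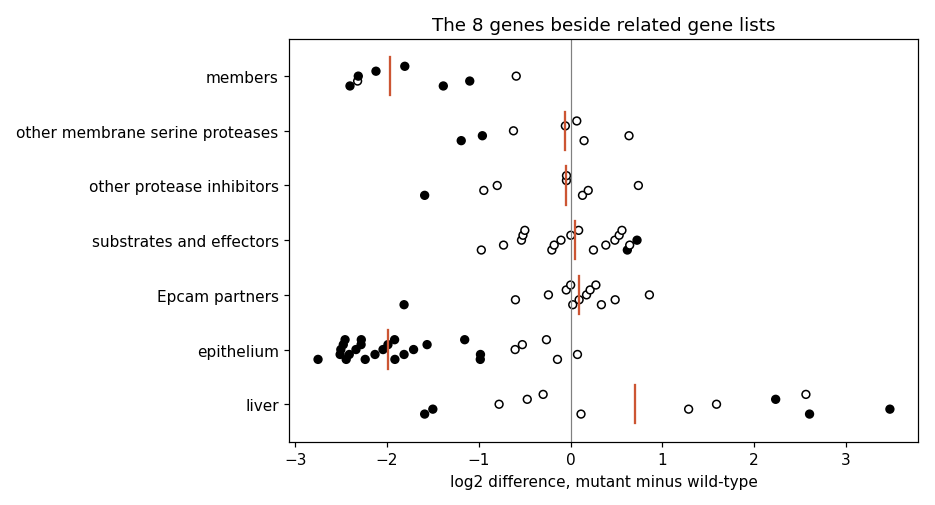
Log2 difference, mutant minus wild-type, of each measured gene, by list. Filled points passed an adjusted p of 0.05 in limma and the vertical bars are list medians. Among the 7 lists drawn they run from -1.99 for epithelium and -1.96 for the 8 members to 0.70 for liver.

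RefSeq promoter windows of 250 bases before to 50 after the start (GRCm38.p6) were found for 5 of the 8 members, with 2 windows for Hpn. Those of Epcam and Spint1 are shown because both genes fell together, as the 250 bases before the start, at chr17:87635729-87635978 and chr2:119237110-119237359, both on the plus strand. Capitals mark the motifs searched on both strands over the whole window, which were ACAATG and ACAAAG (Sox type), AACCGG (Grainyhead type), CACCTG (the E-box of Snai and Zeb factors), GGGCGG (the GC box) and TATAAA.
Epcam: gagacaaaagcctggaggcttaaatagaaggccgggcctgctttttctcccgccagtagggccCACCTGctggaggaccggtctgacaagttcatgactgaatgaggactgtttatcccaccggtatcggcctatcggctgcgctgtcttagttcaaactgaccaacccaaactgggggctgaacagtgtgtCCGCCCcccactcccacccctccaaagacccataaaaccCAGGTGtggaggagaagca
Spint1: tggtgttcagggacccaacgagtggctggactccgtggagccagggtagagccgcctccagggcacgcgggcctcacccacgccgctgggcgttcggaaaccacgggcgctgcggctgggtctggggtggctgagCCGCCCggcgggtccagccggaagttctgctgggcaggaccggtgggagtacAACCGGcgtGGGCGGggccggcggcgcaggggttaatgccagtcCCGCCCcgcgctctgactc
Neither Sox-type motif was in any of the 6 windows, and these letters occur in 12.6% and 18.7% of all 32851 windows. The Spint1 window held AACCGG, as do 6.83% of all windows, and CACCTG was found in those of Epcam, Spint2 and 1 of the Hpn windows, as in 20.2% of all. GGGCGG was found in the Epcam, Spint1 and Spint2 windows and 1 of the Hpn windows, as in 35.7% of all, and TATAAA in none, against 13.6% of all.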

How the data were processed

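Per the file headers, the deposited scanner files were made by the authors with Agilent Feature Extraction 9.5.3.1 from Cy3 arrays, with probe positions on mm8. The deposited processed signal is an intensity, background subtracted and detrended within each array. Mean signal and local background are deposited intensities as scanned, and the deposited control, outlier, saturation and background columns are flags, other than measurements. The authors' value table holds 33067 linear intensities per array with a median of 227. Per the submitters' processing notes limma was used, with steps and version not given in the sources used here. The table's scale is linear, and its median is the same on every array, which does not by itself show the normalization method. Values are not centred and have no direction, and the background method stays unknown. Its row numbers were first matched to the feature number, which failed (rank correlation with the mean signal of 0.0029 at most). Of 7 keys compared, only the row position among all spots matched, with at least 0.9991 on every array, and it was used.

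Of 45018 spots, 1639 control spots and outlier spots were left out. Log2 processed signals minus each array's 75th percentile (372 to 640) were averaged per probe, and 27389 probes well above background on at least 4 of 8 arrays were kept. Probes were named through their RefSeq accession (23374), through a probe sharing the deposited name (4500) or by that name itself (13300). Each of 18506 genes was read from its kept probe of highest mean signal. Mutant and wild-type arrays were compared with limma 3.58.1 (lmFit and eBayes, R 4.3.3) in a two-sided test whose p-values were Benjamini-Hochberg adjusted across genes, and single values with an exact permutation test over 70 assignments. The number of arrays limits the precision. The members and lists were chosen with earlier results of these data known. Named were all members, 16 listed genes (1 is not reported here), genes of the 4 pathway lists past the threshold and the 5 genes most like Epcam. Genes of marker lists that are not named in these ways are given as counts, except that 5 liver genes are named. In data simulated for this comparison over 18506 genes, 4% of log2 changes of 0.5, 60% of 1, 80% of 2 and 84% of 3 were recovered. In those data 10 unchanged genes were called. The simulated arrays were independent and had no slide differences, and fewer genes were changed than were called in the real data, so recovery there can differ. Nothing in the labels says that replicate numbers pair samples. After each gene's mean within its genotype was subtracted, same-numbered wild-type and mutant samples correlated between -0.354 and 0.0875. No 2 arrays held identical signals. P-values measure the spread between these pools.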

Additional observations from a re-analysis of the deposited data

Results flagged for a closer look

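Spint2 in mutant replicate 2, at -4.59, stood apart from the other mutant arrays (-1.51 to -1.03), with a gap of 0.866 of the group's range. It is the mutant array of slide 3, on which both wild-type arrays were low too. Hpn in wild-type replicate 1, at 2.58, stood apart from the other wild-type arrays (1.53 to 1.63), with a gap of 0.909 of the range, and the second Hpn probe was at -2.28 there against -2.41 to -2.29 on the others. Among 24 groups of 4 arrays examined, chance flags about 1 in 20.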

How the results depend on the processing

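Epcam, St14, Spint1 and Prss8 passed the threshold under every alternative tested with limma except the Y-linked covariate, where they gave -1.87, -2.09, -2.38 and -1.75 and Tmprss2 and Hpn gave -1.34 and -1.16, with 0 members and 29 genes called. The count of called genes was 419 with no filter on dim probes, 1529 with slide as a random block, 1709 with array weights and 340 with the replicate block, and leaving out single arrays gave 395 to 976 genes and 4 to 6 members. With the replicate block, whose numbers are not known to pair samples, 4 members passed, and Tmprss2 (-1.10, adjusted p = 0.0745 in limma) and Hpn (-1.39, adjusted p = 0.0656) were lost. Tmprss2 was also lost with normexp (-0.19), in the authors' table (-0.12) and with the mean of its probes (-0.82). Spint2 gained the call with slide as a fixed block (-1.36) but not as a random block (-0.90, adjusted p = 0.617 in limma), and Tmprss4 gained it as a random block (-2.41, adjusted p = 0.0360 in limma). Within slide 3, Spint1 was at -3.05 and Tmprss4 at -4.34. Tmprss2 and Tmprss4 are dim, and their size depended on the background treatment.

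Leaving out single arrays moved Epcam between -2.46 and -1.92, St14 between -2.62 and -2.07, Spint1 between -2.66 and -2.21, Prss8 between -2.06 and -1.64, Tmprss2 between -1.21 and -0.99, Tmprss4 between -2.62 and -1.76, Hpn between -1.49 and -1.14, and Spint2 between -1.07 and 0.23.

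Relative to epithelial genes, 3 members passed with Cdh1 as the reference, against 98% of all genes, where Epcam (0.39), St14 (0.20), Spint1 (0.11), Prss8 (0.70) and Tmprss4 (0.19) changed sign and Tmprss2 (1.41) and Hpn (1.12) passed. With normexp 4 passed, against 98.5% of all genes (Spint1, Spint2, Tmprss2 and Tmprss4), with Spint1 at -0.65 and Tmprss2 at 1.40 newly past, and Prss8 (0.26) and Tmprss4 (0.86) changed sign. With the mean of the list Spint1 passed (-0.69) and Spint2 did not (1.12), against 96.3% of all genes that passed. With slide as a block 0 passed, against 94.2% of all genes, with Spint2 at 0.44. In the exact permutation test, added after seeing the data, Spint2 (1.16) did not pass (p = 0.229). Leaving out single arrays gave 0 to 1 members, against 92.1% to 96.6% of all genes. Epcam then ran from -0.48 to -0.22, St14 from -0.70 to -0.37, Spint1 from -0.86 to -0.56 and Spint2 from 0.55 to 1.79. Prss8 ran from -0.27 to 0.054, Tmprss2 from 0.47 to 0.83, Tmprss4 from -0.78 to -0.19 and Hpn from 0.24 to 0.52.

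St14 minus Spint1 was -0.41 within slide 1 and 0.40 within slide 2, and Prss8 minus Spint1 was 0.21 within slide 1 and 0.78 within slide 3. Leaving out single arrays gave 0.0011 to 0.23 for the former and 0.56 to 0.66 for the latter, and -2.44 to -1.19 for St14 and -1.88 to -0.71 for Prss8 minus Spint2. The cause of these changes was not tested.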
